A study of Homo sapiens with 6 samples.

Results

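The leukotriene pathway was followed through 7 genes in REH cells after silencing of the ETV6/RUNX1 fusion: ALOX5, ALOX5AP, LTA4H, LTC4S, PLA2G4A, CYSLTR1 and LTB4R. They were 7 of 19721 genes that had a catalogue probe with a RefSeq name on the array, and they were found through the RefSeq accession of each catalogue probe, which gave 8 probes. ALOX5 was picked because its difference in this same comparison was already known to be among the larger ones, and the other 6 genes were added for their place in the pathway. The member differences below are therefore a description of these arrays, given with their errors and without a test.

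The REH line derives from a human B-cell precursor leukemia (BCP-ALL), harbours ETV6/RUNX1 and has lost its remaining ETV6 allele. Cells were grown in RPMI with fetal bovine serum, and 3 samples per group were profiled on one-color Cy3 arrays with 100 ng of RNA each. The knockdown group received an shRNA directed at the ETV6/RUNX1 fusion and the control group a non-targeting shRNA. Per the study's methods both hairpins came from lentiviral vectors with GFP, both had been designed against ETV6, the control hairpin did not hit the fusion transcript, and GFP-positive cells were sorted, so all 6 samples share transduction and sorting. The study calls these samples biological triplicates. The knockdown rests on 1 hairpin in 1 cell line.

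Leukotrienes are lipid mediators made from arachidonic acid. The cytosolic phospholipase A2 encoded by PLA2G4A frees arachidonic acid from membranes, ALOX5AP (FLAP) presents it to 5-lipoxygenase, the product of ALOX5, and 5-lipoxygenase turns it into leukotriene A4. LTA4H then makes leukotriene B4, which acts through LTB4R, whereas LTC4S makes leukotriene C4, the parent of the cysteinyl leukotrienes sensed by CYSLTR1. The pathway is best known from granulocytes, monocytes and mast cells, and ALOX5 is also expressed in B cells.

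Raw median intensity ran from 66 to 75 over the arrays, negative control spots had medians of 42.3 to 48.0, and 45.7% to 50.9% of probes were above background by the scanner flag. Levels are given as generalised log2 values, a scale that equals log2 at high intensity but compresses differences between dim signals, and n = 3 per group throughout. Over 27425 retained probes, limma called 477 (1.74%) at an adjusted p under 0.05, 126 higher in knockdown (0.459%) and 351 lower (1.28%). The targeted gene was checked first. Of 2 ETV6 probes, A_33_P3356325 measured 8.11 ± 0.23 (SD) in control and 7.41 ± 0.11 in knockdown, a log2 difference of -0.70 (SE 0.14, limma adjusted p = 0.0513), lower in 3 of 3 replicate pairs. It was called under 2 of 17 alternative settings, with adjusted p from 0.0213 to 0.224 and a difference from -0.96 with the slide row as a term to -0.38 with spike-in scaling. The other ETV6 probe was not above background on any array, and where these probes lie relative to the fused portion was not analysed here.

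Among the 7 genes, 5 were above background on all 6 arrays, LTC4S on some and PLA2G4A on none. Of the 8 probes 7 were retained, and 1 of the 7, that of ALOX5, was called, against 1.74% of all retained probes. Groups did not overlap for 3 of the 7 retained probes, those of ALOX5, LTC4S and 1 of LTA4H, against 18.9% of all retained probes. Since ALOX5 was picked on this contrast, nothing is read from either count.

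RefSeq promoters (assembly GRCh38.p14, whereas the array was designed on hg19) were matched for 6 of the 7 genes, all but ALOX5. Because the fusion retains the DNA-binding Runt domain of RUNX1, the 250 bases before the start site were searched on both strands for the RUNX letters TGTGGT and TGCGGT. The motifs were chosen after the promoter sequences had been seen. The promoters of LTC4S (chr5:179793736-179793985, plus strand), ALOX5AP (chr13:30713235-30713484, plus strand) and LTA4H (chr12:96035588-96035837, minus strand) are shown because these genes, like ALOX5, act in leukotriene synthesis and had a retained probe. Each is written 5′ to 3′ on the gene's strand, and capitals mark a RUNX match.
LTC4S: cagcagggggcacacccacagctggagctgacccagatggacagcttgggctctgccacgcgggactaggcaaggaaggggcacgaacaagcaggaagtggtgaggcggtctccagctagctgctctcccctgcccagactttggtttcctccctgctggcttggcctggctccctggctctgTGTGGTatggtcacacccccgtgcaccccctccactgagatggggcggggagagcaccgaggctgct
ALOX5AP: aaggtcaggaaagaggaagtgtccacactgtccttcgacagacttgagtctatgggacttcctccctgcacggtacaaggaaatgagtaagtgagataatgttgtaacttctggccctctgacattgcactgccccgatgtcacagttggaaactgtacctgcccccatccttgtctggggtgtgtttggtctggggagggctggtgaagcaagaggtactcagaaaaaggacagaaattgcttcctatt
LTA4H: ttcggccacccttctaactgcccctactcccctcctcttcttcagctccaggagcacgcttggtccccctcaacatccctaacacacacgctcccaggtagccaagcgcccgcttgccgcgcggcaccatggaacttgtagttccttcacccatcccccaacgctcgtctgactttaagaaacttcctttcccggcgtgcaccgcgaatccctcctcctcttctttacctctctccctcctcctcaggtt
The LTC4S promoter held TGTGGT 67 bases before the start, and the other 5 promoters matched held neither version in this window. The search did not cover ALOX5. RUNX letters occur in 16.3% of 35116 RefSeq promoter windows of the same length. GAGGAAG, bound by the ETS factors PU.1 and SPIB, occurred in the ALOX5AP window 238 and 193 bases before the start and in that of CYSLTR1 67 bases before it, and occurs in 11.2% of all windows. The Sp1 letters GGGCGG occurred in LTC4S alone, 25 bases before the start, and occur in 42.6% of all windows. The 3 motifs share no overlapping match in these windows, and a match in letters is no evidence of binding.

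ALOX5 was measured by probe A_23_P104464, designed on NM_000698 and printed in 5 spots per array. Its levels were 7.80, 8.17 and 8.02 on control replicates 1 to 3 and 9.13, 9.45 and 9.54 on knockdown replicates 1 to 3. Every knockdown array lay above every control array. The SD was 0.18 in control and 0.22 in knockdown, around a knockdown mean of 9.37 that exceeded the control mean by 1.37 on the log2 scale (SE 0.14), or 2.59-fold. Pairs of equal replicate number differed by 1.33, 1.28 and 1.52, so the difference had the same direction in 3 of 3 pairs.

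The single spots showed the same separation before any normalization. Median raw intensities of the ALOX5 spots were 235, 306 and 291 in control and 674, 658 and 721.5 in knockdown. The highest control spot read 335.5 and the lowest knockdown spot 630, so no spot of one group reached the other. All 30 spots were above background. One spot of knockdown replicate 1, at 979, carried an outlier flag and was left out of the level. On the plot of single spots, the negative controls lie far below both groups of ALOX5 spots.

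**Figure D1:**
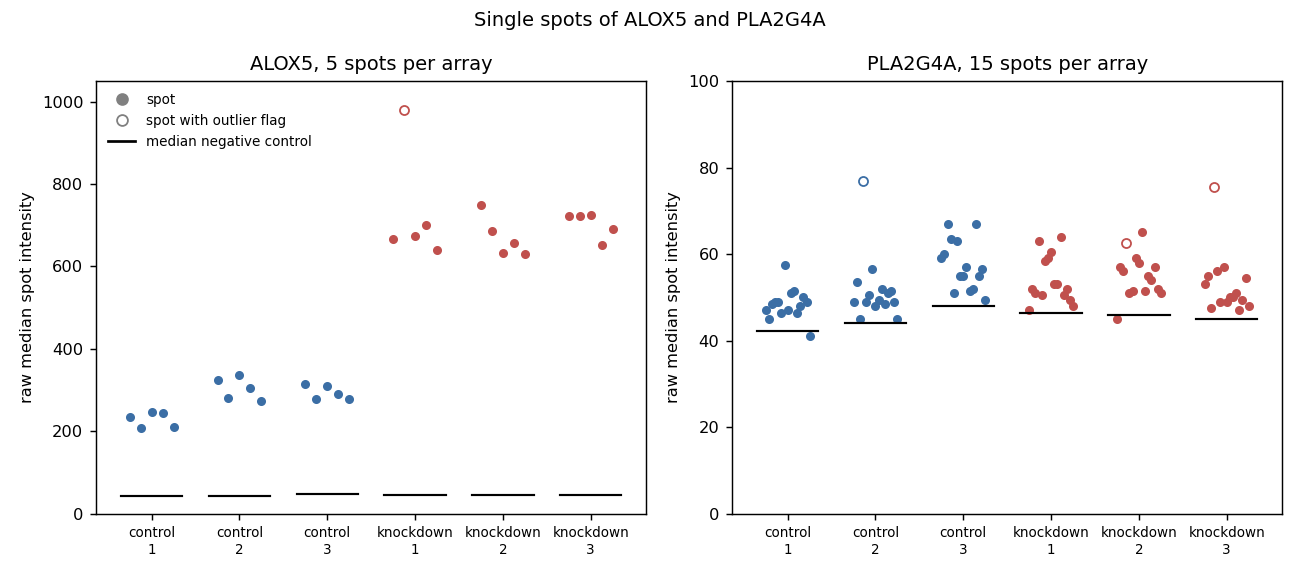
Raw median intensity (y axis, linear, starting at 0) of each spot of ALOX5 (left, 5 per array) and PLA2G4A (right, 15 per array) on the 6 arrays. Control is blue, knockdown is red, open circles carry an outlier flag and black lines are the median negative control spot. ALOX5 spots read 207 to 335.5 in control and 630 or more in knockdown, and PLA2G4A spots lie between 41 and 77 on all arrays.

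The ALOX5 difference lay between 1.23 with normexp and quantile normalization and 1.69 with spike-in scaling over 18 alternative settings of the same arrays. Rows of the slide were not balanced, since control replicates 1 and 2 were in row 1 and the other 4 arrays in row 2. With the row as a term, so that control replicate 3 alone stands for control in row 2, the difference was 1.35.

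In bulk samples, a change in the share of cells that express a gene and a change of RNA per cell cannot be told apart. Markers of other cells that make leukotrienes were therefore read beside ALOX5, together with markers of T and NK cells and of B-cell precursors. Of 15 monocyte and granulocyte probes 5 were retained, and 6 of the 13 genes with a probe, among them S100A8, S100A9, CD33 and ELANE, were not above background on any array. CD14, CSF1R and ITGAM were above background on all 6 arrays, with log2 differences of -0.13, -0.05 and 0.07. FCN1 stood at -0.62 by A_23_P157875, which was retained through the control group. Sums of levels here cover all probes of a list, retained or not, and so include background signal. The monocyte and granulocyte list summed to 2746 to 4116 in control and 1448 to 2079 in knockdown. Most of that gap came from 1 gene: without CSF3R the sum ran from 926 to 1094 in control and from 860 to 991 in knockdown. Over retained probes alone, without CSF3R, it ran from 534 to 609 in control and from 510 to 604 in knockdown. CSF3R, the receptor for granulocyte colony-stimulating factor, fell by 1.58 on the log2 scale (adjusted p = 0.0391) and was the 1 probe of the list that was called. Mast cell and basophil markers summed to 313 to 322 in control and 305 to 330 in knockdown. Only 2 of these 7 probes were retained, so much of this sum was background signal. T and NK cell markers summed to 697 to 965 in control and 857 to 965 in knockdown, with 6 of 11 probes retained, 4 higher and 2 lower. The control value of 965 included a CD5 probe that was not retained. It read 7.85 on control replicate 3, against 5.01 and 5.21 on control replicates 1 and 2. NKG7 stood at 0.62 (SE 0.16, adjusted p = 0.137), higher in 3 of 3 pairs. B-cell precursor markers, the labelled identity of the line, had 20 of 22 probes retained and none called, and summed to 303718 to 312617 in control and 341873 to 414026 in knockdown. Their part in the ALOX5 difference was not tested.

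ALOX5AP, the partner that hands arachidonic acid to 5-lipoxygenase, was measured by A_24_P347378 on NM_001629. Its levels were 9.51, 8.36 and 8.36 in control and 10.58, 8.78 and 8.81 in knockdown. Replicate 1 was the highest array of its group on both sides, and the groups overlapped, since control replicate 1 lay above knockdown replicates 2 and 3. The means were 8.74 ± 0.66 and 9.39 ± 1.03, a log2 difference of 0.64 (SE 0.51). The pairs differed by 1.07, 0.41 and 0.45, higher in knockdown in 3 of 3. Without knockdown replicate 1 the difference was 0.05, but this leaves the high control replicate 1 without its pair. Without replicate 1 of both groups it was 0.43, and with the slide row as a term it was 1.03.

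LTA4H, the hydrolase that yields leukotriene B4, had 2 probes on the same accession, NM_000895. Probe A_23_P388670 read 14.67, 14.54 and 14.34 in control and 13.73, 14.00 and 14.16 in knockdown. Every knockdown array lay below every control array, with the smallest gap between control replicate 3 and knockdown replicate 3. The log2 difference was -0.55 (SE 0.14), and the pairs ran from -0.94 to -0.19. Probe A_33_P3410093 read 10.70, 10.44 and 10.36 in control and 10.49, 10.11 and 10.06 in knockdown. These groups overlapped, although knockdown was lower in 3 of 3 pairs, and the difference was -0.28 (SE 0.15). It was -0.18 without control replicate 1 and -0.14 with the slide row as a term, whereas the first probe stood at -0.36 without replicate 1 of both groups. With both probes averaged, LTA4H differed by -0.42 (SE 0.11). Under spike-in scaling, which moved the median of all probes by 0.32, the first probe stood at -0.24 and the second turned to 0.04.

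LTC4S, the synthase at the head of the cysteinyl branch, lay close to background. Probe A_24_P397294 on NM_145867 read 5.58, 5.75 and 5.67 in control and 5.92, 5.91 and 5.92 in knockdown. All knockdown arrays lay above all control arrays, but the probe was above background on only 1 of 3 control arrays and on 3 of 3 knockdown arrays. It was retained through the knockdown group, as no control array passed the filter threshold. The log2 difference was 0.25 (SE 0.09), and it lay between 0.13 with normexp and quantile normalization and 0.57 with spike-in scaling. Raw intensities were 61, 69 and 71 against 83.5, 76 and 74, and after the scanner's background subtraction the groups overlapped, with 14.0, 22.9 and 19.6 against 30.3, 19.7 and 22.0.

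PLA2G4A, which supplies the substrate, was printed in 15 spots per array (A_23_P11685, NM_024420) and was not above background on any array. Its median raw intensity ran from 48.5 to 56.5, and 2 of its 90 spots were above background. No difference is given for it. At this signal a low level of PLA2G4A could not be told from background, so its absence is not shown.

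The receptors differed little between the groups. CYSLTR1, a receptor for cysteinyl leukotrienes, read 8.97, 8.41 and 8.38 in control and 8.95, 8.45 and 8.38 in knockdown. Replicate 1 was the highest array in each group, as for ALOX5AP, and the groups overlapped. The log2 difference was 0.004 (SE 0.20), and it fell below 0 in 3 of 18 alternative settings. LTB4R, a receptor for leukotriene B4, read 8.34, 8.05 and 8.09 in control and 8.29, 8.26 and 8.12 in knockdown, a difference of 0.06 (SE 0.11) between overlapping groups. Its difference lay between 0.005 and 0.38 over the alternatives, the highest value coming from spike-in scaling.

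**Figure D2:**
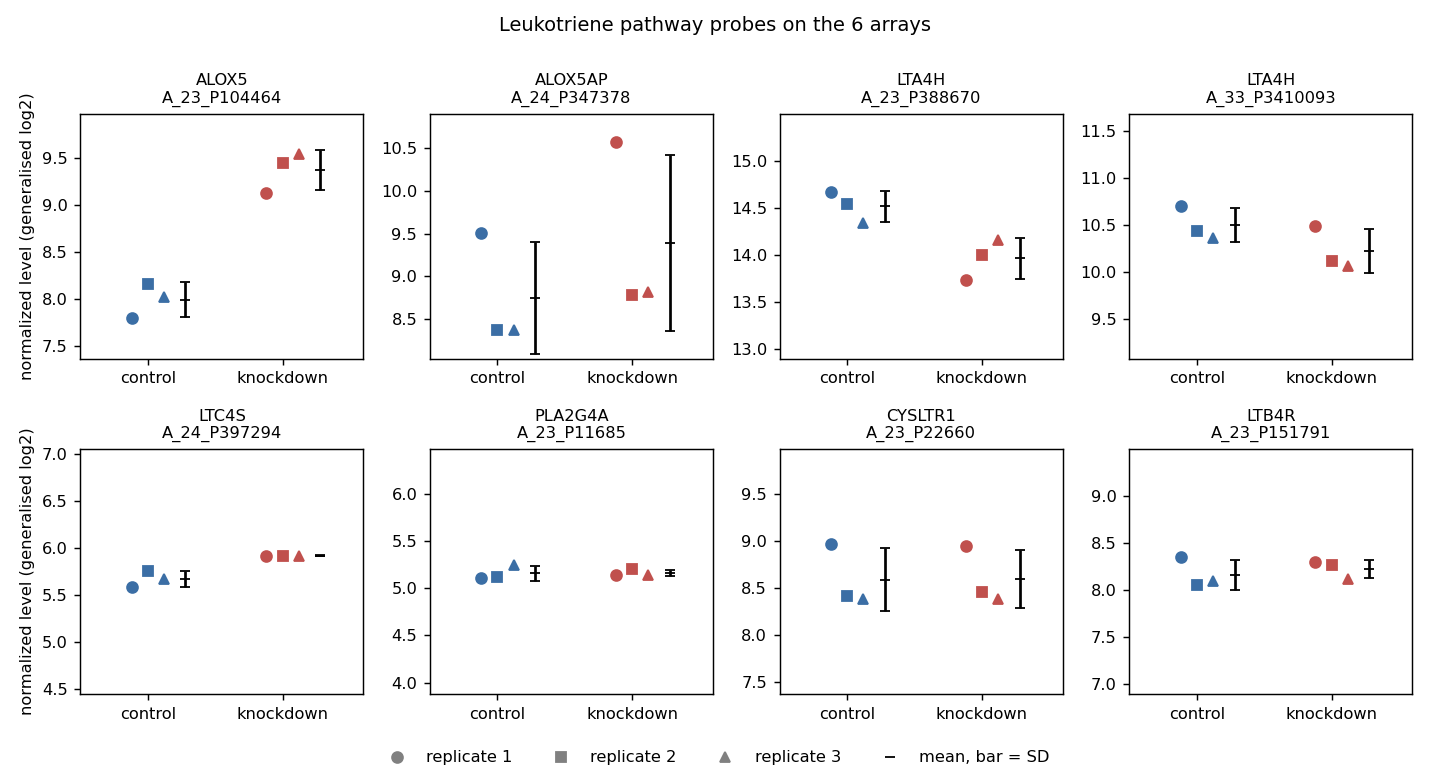
Normalized level (y axis, generalised log2, each panel spanning its own range) of the 8 probes on the 6 arrays, with control in blue and knockdown in red. Marker shapes give the replicate number, and black bars give mean and SD. ALOX5, LTC4S and the first LTA4H probe show groups that do not overlap, and replicate 1 stands above the others for ALOX5AP and CYSLTR1 in both groups.

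**Figure D3:**
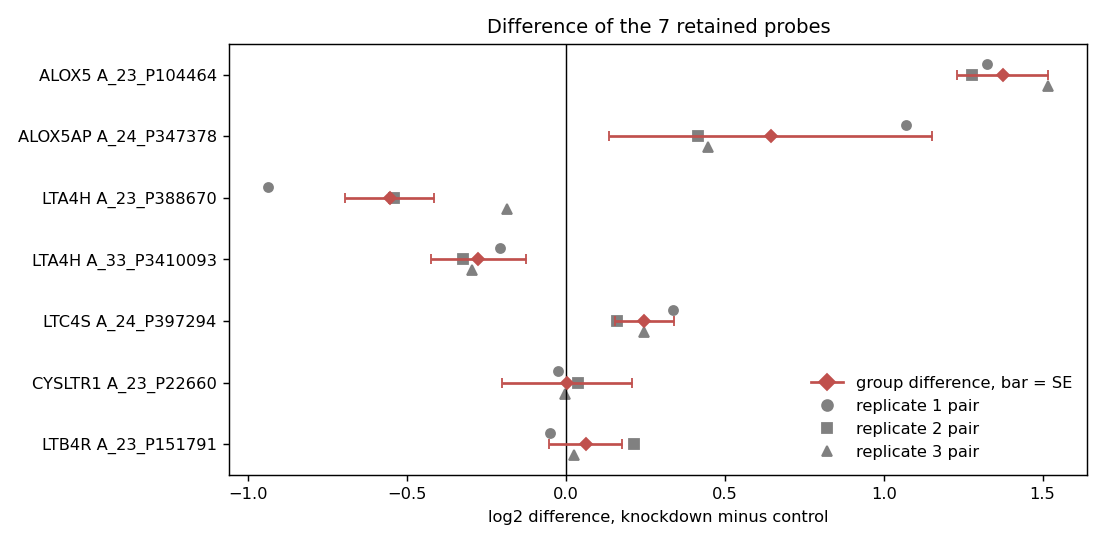
Log2 difference of knockdown minus control (x axis) for the 7 retained probes. Red diamonds with bars give the group difference and its SE, and grey markers the 3 pairs of equal replicate number. ALOX5 lies at 1.37 with pairs from 1.28 to 1.52, both LTA4H probes lie below 0, and the receptors lie near 0.

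To place ALOX5 on the array, its centred levels over the 6 arrays were compared with those of 17549 other retained probes with a name, standing for 13620 genes, by the root mean square difference. The nearest genes were SMC1A (0.128), a cohesin subunit, CYBB (0.176), the catalytic subunit of the phagocyte NADPH oxidase, CAPG (0.190), an actin-capping protein, GAS7 (0.190) and SPIB (0.199), an ETS factor of the B lineage. Their own log2 differences were 1.17 for SMC1A, 1.12 for CYBB, 1.19 for CAPG, 1.17 for GAS7 and 1.35 for SPIB, so they share with ALOX5 mainly the step between the groups. The other pathway members lay farther away, from 0.58 for LTC4S, at rank 1192, to 0.98 for LTA4H probe A_23_P388670, at rank 16860. These distances describe 6 arrays and carry no test.

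**Figure D4:**
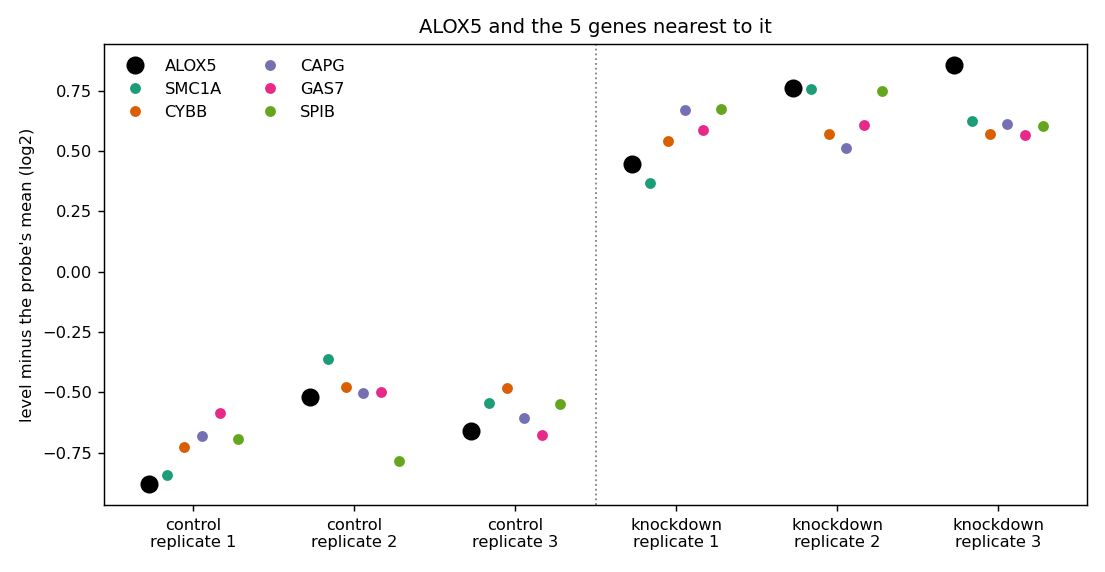
Level of ALOX5 (large black points) and of the 5 nearest genes on each array, minus the mean of the probe over the 6 arrays (y axis, log2). For all 6 genes the 3 control arrays lie below 0 and the 3 knockdown arrays above 0.

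The wider eicosanoid machinery was then examined through 8 lists with 76 genes, 74 of which had a probe. Of their 92 probes 60 were retained, and limma called none, whereas 10 of the 60 had an unadjusted p under 0.05, as did 3438 of the 27425 retained probes of the array. Values were higher in knockdown for 35 probes and lower for 25, with a median log2 difference of 0.04 against -0.002 over all retained probes. Spike-in scaling moved the median of all probes to 0.32, and most of the 60 were then higher. Small negative differences turned positive, as for MGST2 (0.06), ABCC1 (0.10) and DICER1 (0.10). PTGIR, AKR1C3, PTGES3, TBXAS1 and TBXA2R probe A_23_P90357 stayed negative, and PLA2G10 stood at -0.0003. With replicate number as a block, which raised the called share of all retained probes to 3.78%, 4 of the 60 were called: PTGIR (adjusted p = 0.0161) and AKR1C3 (0.0414), both lower, and MBOAT1 (0.0338) and OXER1 (0.0485), both higher. Over 17 alternatives the adjusted p ran from 0.0161 to 0.344 for PTGIR, from 0.0352 to 0.801 for AKR1C3, from 0.0092 to 0.738 for MBOAT1 and from 0.00337 to 0.703 for OXER1, with the direction of each kept throughout.

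The steps nearest to 5-lipoxygenase showed small differences. All 7 probes for its partners and kinases were retained, 5 higher and 2 lower with a median of 0.14, with DICER1 at -0.22 and MAPK14 at -0.16. Among other lipoxygenases 4 of 6 probes were retained, 2 higher and 2 lower with a median of -0.006, with ALOXE3 at -0.12, ALOX15B at -0.03 and ALOX12B at 0.03. ALOXE3 was retained through the control group, passing the threshold on 2 control arrays and 1 knockdown array. Other phospholipases A2 had 11 of 15 probes retained, 7 higher and 4 lower with a median of 0.07. PLA2G10 stood at -0.32 and PLA2G12A at -0.16 by A_23_P30020 and -0.12 by A_24_P706752. PLA2G6 stood at 0.27 by the dim probe A_33_P3421821, which passed the filter on 2 knockdown arrays and no control array, and at 0.15 by A_23_P6464. Arachidonate activation and reacylation sets how much free arachidonate is left. Its list, which also holds the desaturases FADS1 (0.23) and FADS2 (0.06), had 13 of 13 probes retained, 10 higher and 3 lower with a median of 0.19. The acyltransferases MBOAT1 and MBOAT2 stood at 0.50 (SE 0.14, adjusted p = 0.164) and 0.33, and the acyl-CoA synthetase ACSL1 at 0.30.

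Downstream of the leukotrienes, the inactivation, export and processing list had 7 of 12 probes retained, 2 higher and 5 lower with a median of -0.06. MGST2, which can also make leukotriene C4, stood at -0.26, the exporter ABCC1 at -0.22 and the dipeptidase DPEP2 at -0.08. Of the other lipid mediator receptors 3 of 10 probes were retained, 2 higher and 1 lower with a median of 0.19. OXER1, a receptor for oxidised products of the 5-lipoxygenase route, stood at 0.58 (SE 0.17, adjusted p = 0.203) and was higher in 3 of 3 pairs, with LTB4R2 at 0.19 and PTAFR at -0.09.

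The prostanoid branch shares arachidonic acid with the leukotrienes. Its synthesis and breakdown list had 7 of 13 probes retained, 2 higher and 5 lower with a median of -0.14, and the cyclooxygenase genes PTGS1 and PTGS2 were not retained. AKR1C3, a prostaglandin F synthase, stood at -0.49 (SE 0.14, adjusted p = 0.173), PTGES3 at -0.47 and the thromboxane synthase TBXAS1 at -0.46, each lower in 3 of 3 pairs. TBXAS1 stood at -0.28 with the slide row as a term, and was called without replicate 1 of both groups (limma adjusted p = 0.0284). Prostanoid receptors had 8 of 16 probes retained, 5 higher and 3 lower with a median of 0.12. The prostacyclin receptor PTGIR had the lowest adjusted p of all 8 lists and stood at -0.71 (SE 0.14, adjusted p = 0.0535), lower in 3 of 3 pairs and above background on 2 of 3 knockdown arrays. Its difference was -1.35 with processed signals scaled on the 75th percentile, -0.41 with normexp and quantile normalization and -0.39 with spike-in scaling. The dim receptor PTGER1 stood at 0.49 (SE 0.11), above background on 1 of 3 control arrays and 3 of 3 knockdown arrays. It was retained through the knockdown group, where it was higher. Its difference was 0.90 with the 75th percentile scaling, 0.29 with normexp and quantile normalization and 0.81 with spike-in scaling, where it was called. The thromboxane receptor TBXA2R stood at -0.48 (SE 0.33) by probe A_23_P90357, and at -0.14 with the slide row as a term. This probe was called without replicate 1 of both groups (limma adjusted p = 0.0361). Its other retained probes stood at 0.06 (A_23_P355471) and -0.03 (A_33_P3307886).

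**Figure D5:**
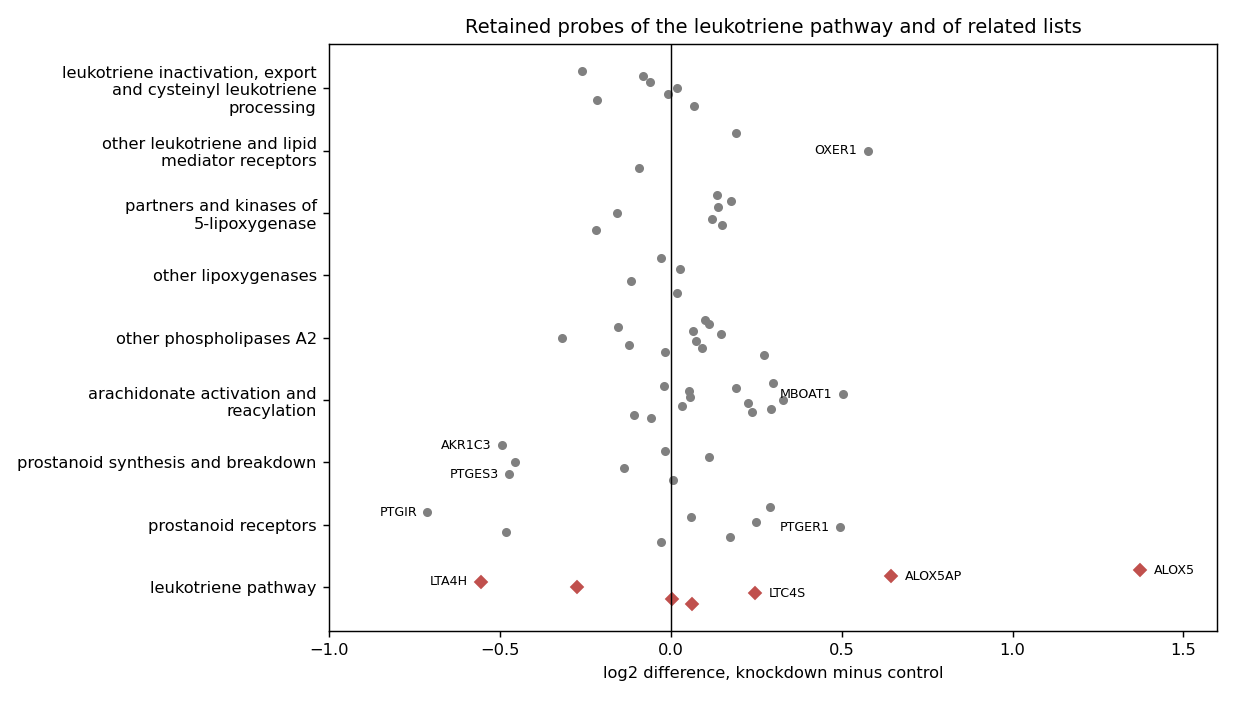
Log2 difference of knockdown minus control (x axis) for each retained probe of the 8 related lists (grey) and of the leukotriene pathway (red diamonds). Names are given for some of the points with larger differences. The grey points lie between -0.71 and 0.58, whereas ALOX5 lies at 1.37.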

How the data were processed

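Total RNA of 6 REH samples was labelled with Cy3, and the authors extracted spot intensities with Agilent's Feature Extraction software (version 10.7.1.1 per the file headers). Neither the deposited raw median nor the processed intensities were normalized between arrays, and the other deposited columns used were the scanner flags. The authors also deposited normalized log2 values for 27869 probes, which correlated with the values used here at r = 0.99904 to 0.99969 per array, across probes.

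Here the VSN model named in the methods was rewritten and fitted by maximum likelihood (0.9 quantile of least squares kept) to raw median intensities. Outlier spots were dropped, no spot was saturated, and replicate spots were averaged. Probes had to exceed 1.1 times the 0.95 quantile of 308 normalized negative controls in 60% or more of one group's arrays. Differences were tested in R 4.3.3 with limma 3.58.1, two-sided and without a block, with Benjamini-Hochberg adjustment over 27425 retained probes at 0.05. For a single probe, the smallest p of an exact permutation test in this design is 0.1. Same-numbered samples deviated together (r = 0.426, 0.287 and 0.204 across probes), so replicate numbers were taken to pair the samples. Replicates 2 and 3 were hardly told apart, since control 3 with knockdown 2 gave 0.17 and control 2 with knockdown 3 gave 0.187, whereas pairs of replicate 1 with another number lay between -0.331 and -0.264. The fit was tested on simulated data.

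Catalogue probes were named through RefSeq accessions, 25728 of 34134. Members and lists were chosen with earlier results of these data known. Named were every member probe, ETV6, in each list the called genes and the 3 largest differences, and the 5 genes nearest to ALOX5, except 1 gene that is not reported here. S100A8, S100A9, CD33, ELANE, CD14, CSF1R, ITGAM, FCN1, CD5, NKG7, FADS1, FADS2, PTGS1 and PTGS2 were named after their values were seen. GGT1 and PLA2G4B had no matched probe. Alternatives covered scaling, background correction, filter, test, slide row, replicate block and left-out arrays.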

Additional observations from a re-analysis of the deposited data

How the results depend on the processing

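Called probes numbered 477 over the array, 1543 (1327 higher, 216 lower) with spike-in scaling, 224 with no filter on dim probes, 1038 (372 higher, 666 lower) with the replicate block and 234 (21 higher, 213 lower) with the slide row as a term. Leaving out 1 array gave 186 to 580: 277 without control replicate 1, 186 without control replicate 2, 258 without control replicate 3, 223 without knockdown replicate 2 and 215 without knockdown replicate 3. Without replicate 1 of both groups, chosen after seeing the data, there were 908. A filter threshold on raw intensities, also chosen after seeing the data, gave 420.

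The members were picked on this contrast, so nothing is read from their calls: 1 probe, against 1.74% of all retained probes, and 2 with spike-in scaling, against 5.63%. The added probe was that of ALOX5AP, at 0.96 (SE 0.23) in place of 0.64 (SE 0.51), under a scaling that moved the median of all probes to 0.32. In the wider lists 0 were called, against 3 of 60 with spike-in scaling (5.63% of all probes), 4 with the replicate block (3.78%), 1 with processed signals scaled on the 75th percentile (1.41%), 1 with an intensity trend and robust prior (1.96%), 0 to 1 leaving out 1 array (1 without knockdown replicate 1, 2.14%) and 3 without replicate 1 of both groups (3.46%). The replicate block changed no call among the members. The cause was not tested. Signal over background limits LTC4S and PLA2G4A.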
